A study of Mus musculus with 18 samples.

Results

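The 6 genes Acod1, Nos2, Slc7a2, Ass1, Arg1 and Arg2 make or use itaconate, nitric oxide and arginine in activated myeloid cells. They were taken by gene symbol from a table of 16614 genes, and all 6 were found in it and passed the filter on low counts, which kept 11989 genes. RNA had been sequenced from 18 samples of mouse dendritic cells, grown from bone marrow over 7 to 10 days in the growth factors Flt3L (100 ng/ml) and GM-CSF (20 ng/ml). The groups were KO with LPS (n = 5), WT with LPS (n = 5), KO control (n = 4) and WT control (n = 4). LPS, lipopolysaccharide, is a bacterial cell wall component that Toll-like receptor 4 detects. The study's title concerns STAT5 and STAT3 in dendritic cell function, and the design asks how LPS changes these genes and whether the KO alters them in either state.

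Several limits follow from the labels. They do not name the deleted gene, so its level could not be used to check the genotypes, and they give neither a Cre driver nor the dose or time of LPS. Cells were purified on XCR1, the chemokine receptor that marks type 1 conventional dendritic cells (cDC1), by flow sorting or with antibody and magnetic beads, and which method each sample had is not stated. Nor is it stated whether the replicates of a group came from separate mice or cultures, so a p-value here measures the spread between these samples, which may be technical.

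Acod1 encodes the enzyme that decarboxylates cis-aconitate, an intermediate of the tricarboxylic acid (TCA) cycle, to itaconate. Itaconate inhibits succinate dehydrogenase and modifies KEAP1, which releases the transcription factor NRF2. Nos2 encodes inducible nitric oxide synthase, which converts arginine to nitric oxide and citrulline. Slc7a2 encodes the cationic amino acid transporter that carries arginine into the cell. Ass1 encodes argininosuccinate synthase, which with argininosuccinate lyase turns citrulline back into arginine. Arg1 and Arg2 encode the cytosolic and the mitochondrial arginase, which split arginine to ornithine and urea and so compete with nitric oxide synthase for it.

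RefSeq promoter windows were at hand for Acod1 and Ass1, and the 250 bases before each annotated start are shown because these genes were the most abundant of the 6 with LPS. The coordinates are of build GRCm38.p6, chr14:103046762-103047011 for Acod1 and chr2:31470020-31470269 for Ass1, both on the plus strand. Capitals mark the 3 matches described next.
Acod1: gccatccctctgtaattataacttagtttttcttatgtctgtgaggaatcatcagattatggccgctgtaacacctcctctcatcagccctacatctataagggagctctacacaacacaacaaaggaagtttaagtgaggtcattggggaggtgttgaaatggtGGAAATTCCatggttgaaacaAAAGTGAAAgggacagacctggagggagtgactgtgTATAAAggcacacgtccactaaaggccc
Ass1: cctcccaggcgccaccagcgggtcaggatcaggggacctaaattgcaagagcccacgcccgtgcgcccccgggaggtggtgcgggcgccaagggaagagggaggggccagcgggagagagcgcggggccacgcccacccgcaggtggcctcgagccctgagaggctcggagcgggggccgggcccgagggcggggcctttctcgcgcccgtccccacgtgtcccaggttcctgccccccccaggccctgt
Both strands were searched for TTCNNNGAA (the GAS element of STAT factors), an NF-kB site (GGGA, any base, T, any base, TCC), the core of the interferon-stimulated response element, ISRE (GAAA, any 2 bases, GAAA) and TGACGTCA (the CRE), and neither window held any of them. Among all 32851 windows of the same length, these occurred in 7.02%, 1.01%, 2.98% and 1.55%, in the order just given. After the windows had been read, 3 looser patterns were added. GGAANTTCC, a palindrome like an NF-kB site, lay 85 bases before the Acod1 start and occurs in 0.813% of windows. AAANNGAAA, which differs from the ISRE core searched first by its missing leading G, lay 64 bases before it and occurs in 9.37% of windows. The TATA box, TATAAA, lay 28 bases before it and occurs in 12.4% of windows. None of the 3 overlapped another, none was found in the Ass1 window, and a match is a string of letters and not a bound site. By annotation Nos2 lies on chromosome 11, Slc7a2 on 8, Arg1 on 10 and Arg2 on 12.

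Library totals were 25.6 to 27.4 M estimated counts, so depth was close to equal. Levels are given as CPM, which are counts scaled to the library's size with TMM factors. These factors averaged 0.768 in KO LPS, 0.814 in WT LPS, 1.32 in KO control and 1.36 in WT control libraries. One library stood apart before any gene was tested: WT LPS replicate 2 deviated from its group by a root-mean-square of 0.39 on the log2 scale over all tested genes, against 0.14 to 0.27 in the other 17 libraries. The cDC1 marker list of 12 genes summed to 6360 to 7210 CPM in KO LPS, 6700 to 8100 CPM in WT LPS, 8080 to 9260 CPM in KO control and 8630 to 8960 CPM in WT control libraries. Single cDC1 markers differed between genotypes. With LPS, Cadm1 and Cd24a were called higher in KO, and Xcr1, Batf3, Naaa, Itgae and Flt3 lower. Of all tested genes, 5.3% were called higher and 5.5% lower in this comparison. In controls Cd24a was called higher and Xcr1 lower, against 1.89% and 0.525% of all tested genes. Xcr1, the gene of the protein used for the purification, averaged 281 CPM in KO LPS against 428 CPM in WT LPS libraries (-0.61 ± 0.06, edgeR adjusted p = 1.4e-06), and 109 CPM in KO control against 175 CPM in WT control libraries (-0.68 ± 0.07, adjusted p = 1.3e-05). The part of these differences in the results for the 6 genes and the lists was not tested. The 7 cDC2 markers summed to 135 to 256 CPM over all libraries, with the highest sum in WT LPS replicate 2. Of the 5 tested, 2 were called lower in KO with LPS and 0 higher. They were Itgam (-0.74 ± 0.12, edgeR adjusted p = 3.1e-04) and Clec12a (-0.48 ± 0.10, adjusted p = 0.0046). In controls 0 were called. The part of these markers in the results for the 6 genes was not tested. The 10 neutrophil markers summed to 87 CPM in WT LPS replicate 5 and 28 CPM in WT control replicate 4, and to between 1.8 and 4.39 CPM elsewhere. The 15 monocyte and macrophage markers were not near 0. They summed to 2820 CPM in KO LPS replicate 2 and 3000 CPM in WT LPS replicate 2, against 1770 to 2070 CPM in the other KO LPS and 1960 to 2310 CPM in the other WT LPS libraries. They summed to 2340 to 2720 CPM in KO control and 2180 to 2380 CPM in WT control libraries. Single markers of this list moved with LPS: 10 of 15 were called higher and 4 lower in KO cells, and 11 higher and 2 lower in WT cells (6 and 5, and 6 and 4, by total counts). Of all tested genes, 40.0% were called higher and 46.2% lower in KO cells, and 40.7% higher and 44.7% lower in WT cells. Cd14, the LPS co-receptor, averaged 33.6 CPM in KO LPS against 1.63 CPM in KO control libraries (4.36 ± 0.31), and 36.1 CPM in WT LPS against 1.55 CPM in WT control libraries (4.54 ± 0.32). The part of these markers in the LPS responses of the 6 genes was not tested. Between genotypes the list held 1 called gene with LPS, Ccr2, lower in KO (-0.47), and 0 in controls. In such bulk samples, fewer cells of a type and less RNA per cell cannot be told apart.

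LPS raised 5 of the 6 genes in both genotypes, and Arg1 was not called in either. In order of fold, they were Acod1, Nos2, Slc7a2, and then Arg2 and Ass1 at about the same fold. A call here is a Benjamini-Hochberg adjusted p under 0.05 in edgeR's quasi-likelihood test over all tested genes. The response to LPS was broad, with 86.2% of tested genes called in KO cells (40.0% higher and 46.2% lower) and 85.5% in WT cells (40.7% higher and 44.7% lower), so a call alone sets no gene apart. For the same 5 genes no LPS value overlapped a control value of its genotype, as was true of 81.8% of tested genes in KO and 77.9% in WT cells. Acod1, Nos2 and Arg2 had under 10 reads in every control library and could pass the filter only through their LPS libraries, so their calls were bound to follow and their count is no support for a shared behaviour.

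**Figure D1:**
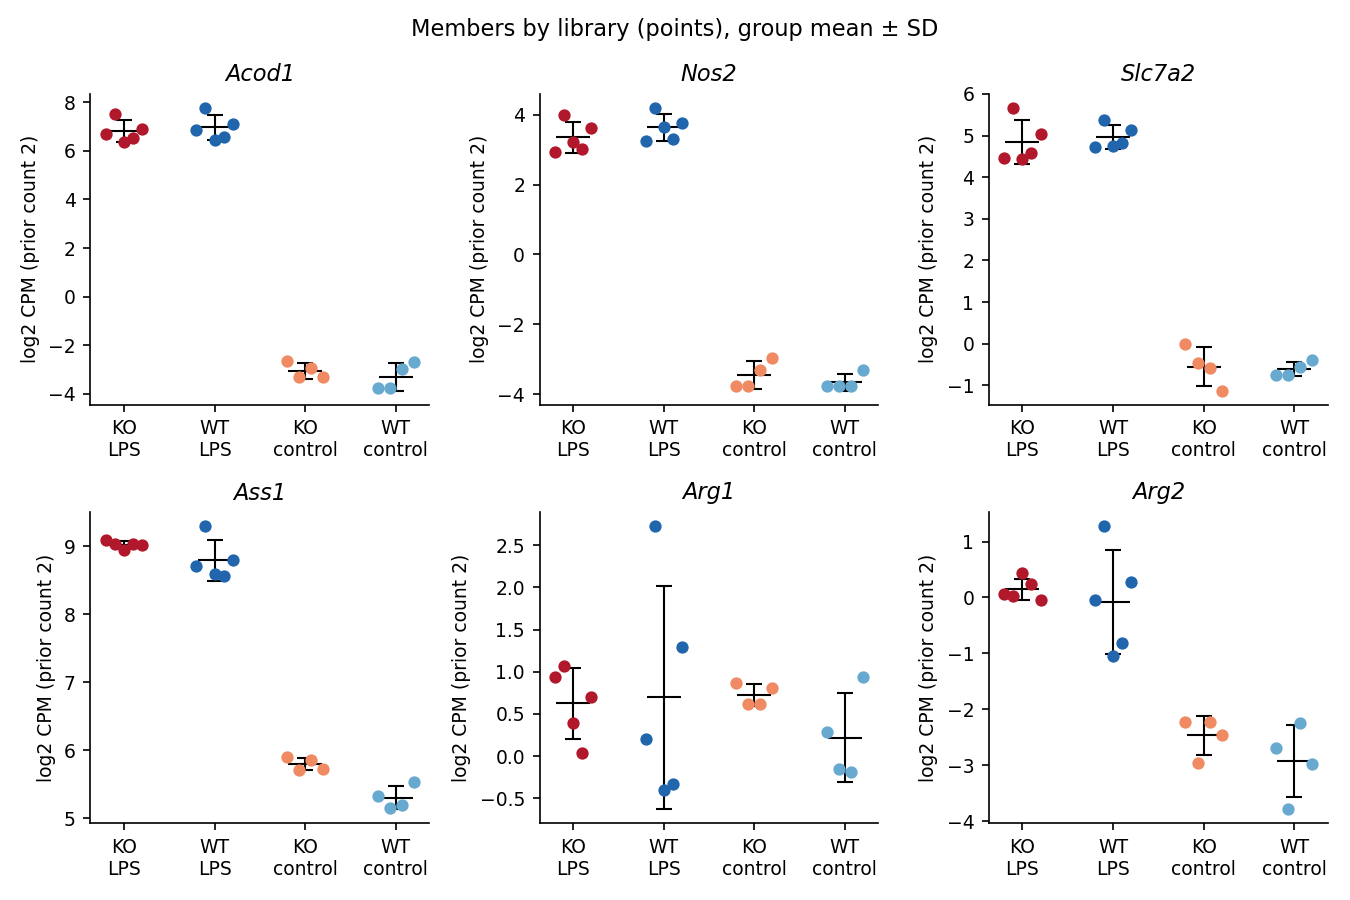
Level of each of the 6 genes in every library, as log2 CPM with a prior count of 2 (vertical axis, a log scale with a different range in each panel), in KO LPS, WT LPS, KO control and WT control libraries. Points are libraries, and the bars give the group mean ± SD of the log2 values. In 5 panels every LPS library lies above every control library, while for Arg1 the 4 groups overlap.

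Acod1 was close to absent in resting cells. It had 104, 185, 81.5, 92.4 and 120 CPM in KO LPS replicates 1 to 5 and 117, 220, 88.3, 95.8 and 140 CPM in WT LPS replicates 1 to 5. The KO control libraries held 3, 1, 2 and 1 reads, and the WT control libraries 0, 0, 2 and 3 reads. Within either LPS group replicate 2 was the highest, and the LPS and control groups lay far apart. A library with 0 reads allows up to 3 by counting error. Summed over libraries and scaled, LPS over control was 2390-fold in KO cells (95% exact interval 1160 to 5940, from 11665 against 7 reads) and 3780-fold in WT cells (1620 to 11600, from 13932 against 5 reads). These intervals cover counting error only. The fitted log2 fold changes of 11.09 ± 0.52 in KO cells (SE, edgeR adjusted p = 7.5e-14) and 11.73 ± 0.54 in WT cells (adjusted p = 6.2e-14) depend on edgeR's prior count.

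Nos2 followed the same course at a lower level. It had 7.63, 15.9, 9.24, 8.07 and 12.2 CPM in the 5 KO LPS libraries and 9.5, 18.4, 12.5, 9.81 and 13.6 CPM in the 5 WT LPS libraries. The KO control libraries held 0, 0, 1 and 2 reads, and the WT control libraries 0, 0, 0 and 1. Again replicate 2 was the highest with LPS in both genotypes, and no control library came near the LPS range. The scaled read ratio was 507 in KO cells (173 to 2460, from 1063 against 3 reads) and 1830 in WT cells (329 to 72500, from 1352 against 1 read). The 2 intervals overlapped. The fitted log2 fold changes were 8.70 ± 0.48 in KO cells (edgeR adjusted p = 9.6e-13) and 10.12 ± 0.52 in WT cells (adjusted p = 4.1e-13).

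Slc7a2, the arginine transporter, was low but measurable at rest. Its level with LPS was 22.1, 50.9, 21.6, 23.9 and 33.0 CPM in KO cells and 26.2, 41.6, 26.9, 28.3 and 35.1 CPM in WT cells. At rest it was 0.93, 0.646, 0.589 and 0.386 CPM in KO cells and 0.517, 0.522, 0.611 and 0.689 CPM in WT cells. Each genotype's LPS libraries lay above all of its controls, and replicate 2 was once more the highest of either LPS group. The log2 fold change was 5.56 ± 0.31 in KO cells (47.7-fold by reads, edgeR adjusted p = 1e-12) and 5.74 ± 0.31 in WT cells (53.6-fold, adjusted p = 8.6e-13). Among other cationic amino acid transporters, Slc7a3 rose to 11.0 CPM in KO LPS cells, against 0.105 CPM in KO controls, and to 7.87 CPM in WT LPS cells, against 0.124 CPM in WT controls (log2 fold changes 6.66 ± 0.41 and 5.93 ± 0.41).

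Ass1 was the only gene of the 6 that was abundant at rest, and LPS raised it further. It had 546, 525, 494, 522 and 517 CPM in KO LPS libraries and 418, 629, 387, 379 and 443 CPM in WT LPS libraries. Control values were 59.4, 52.4, 58.1 and 52.9 CPM in KO and 39.9, 35.5, 36.7 and 46.0 CPM in WT libraries. The spread was narrow in KO LPS cells (coefficient of variation 3.63%) and wider in WT LPS cells (22.7%), where replicate 2 lay far above the other 4. LPS raised Ass1 by 3.23 ± 0.13 on the log2 scale in KO cells (9.35-fold by reads, edgeR adjusted p = 4.8e-15) and by 3.51 ± 0.13 in WT cells (11.3-fold, adjusted p = 2e-15). Its partner Asl, argininosuccinate lyase, singled out for that role after its values were seen, had a log2 fold change of 0.75 ± 0.05 in KO and 0.79 ± 0.05 in WT cells. Both of its values were called with TMM scaling, and the KO one turns in sign with total-count scaling.

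The arginases behaved differently from each other. Arg1 had 1.84, 2.03, 1.24, 0.952 and 1.55 CPM in KO LPS and 1.08, 6.54, 0.682, 0.72 and 2.38 CPM in WT LPS libraries. Its control levels were 1.75, 1.46, 1.46 and 1.68 CPM in KO and 1.14, 0.825, 0.805 and 1.85 CPM in WT libraries. The groups overlapped, with WT LPS replicate 2 alone above 2.38 CPM. The log2 fold change with LPS was -0.06 ± 0.50 in KO cells (edgeR adjusted p = 0.91; 95% interval -1.11 to 0.99) and 0.95 ± 0.49 in WT cells (adjusted p = 0.081; -0.09 to 1.98). The WT value fell to 0.06 (adjusted p = 0.87) without WT LPS replicate 2. It was 1.13, 1.18 and 1.18 without WT LPS replicate 1, 3 or 4 (adjusted p = 0.044, 0.025 and 0.028) and 1.26 without WT control replicate 4 (adjusted p = 0.04), so its side of the threshold depends on single libraries.

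Arg2 was scarce in every library and higher with LPS. It had 0.973, 0.94, 1.28, 1.10 and 0.902 CPM in KO LPS and 0.896, 2.35, 0.409, 0.495 and 1.14 CPM in WT LPS libraries. Control libraries held 5, 2, 5 and 4 reads in KO and 3, 0, 5 and 2 reads in WT. No control library reached an LPS library, and KO LPS values spread less widely than WT LPS values (coefficients of variation of 15.0% in KO LPS and 73.8% in WT LPS). The log2 fold change was 3.17 ± 0.52 in KO cells (9.31-fold by reads, 95% exact interval 5.47 to 16.9, edgeR adjusted p = 1.1e-05) and 3.83 ± 0.56 in WT cells (14.9-fold, 7.82 to 32.0, adjusted p = 2.7e-06).

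Comparison between genes needs a unit per transcript length, and the deposited TPM gives one. With LPS the order of mean TPM was Ass1, Acod1, Slc7a2, Nos2, Arg1 and Arg2 in both genotypes. Ass1 averaged 465 ± 9.39 TPM in KO LPS and 413 ± 71.1 TPM in WT LPS libraries (SD, n = 5 each), and Acod1 averaged 60.8 ± 21.8 TPM in KO LPS and 70.1 ± 24.3 TPM in WT LPS libraries. Slc7a2 averaged 4.87 TPM in KO LPS and 5.22 TPM in WT LPS libraries, and Nos2 3.30 TPM in KO LPS and 4.05 TPM in WT LPS libraries. The ranges of these last 2 overlapped (Slc7a2 3.40 to 8.23 and Nos2 2.30 to 4.97 TPM in KO LPS). Arg1 and Arg2 averaged 1.53 and 1.11 TPM in KO LPS and 2.28 and 1.13 TPM in WT LPS libraries, and they too overlapped. At rest the order differed, with Arg1 second at 2.52 TPM in KO and 2.00 TPM in WT controls, after Ass1 at 78.2 TPM in KO and 60.6 TPM in WT controls. The remaining 4 genes averaged at most 0.188 TPM in either control group.

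Between genotypes in the LPS state, none of the 6 genes was called, against 10.8% of all tested genes (5.3% higher and 5.5% lower in KO), and no gene's KO and WT values were separate, against 6.51% of genes. Acod1 averaged 117 ± 40.9 CPM in KO LPS and 132 ± 53.1 CPM in WT LPS libraries (SD, n = 5 each), a log2 difference of -0.18 ± 0.22 (edgeR adjusted p = 0.65; 95% interval -0.63 to 0.28). Nos2 averaged 10.6 ± 3.47 CPM in KO LPS and 12.8 ± 3.60 CPM in WT LPS libraries, a difference of -0.26 ± 0.20 (adjusted p = 0.43; -0.67 to 0.15). Both intervals run well below 0, so these p-values do not show that the genotypes act alike. Of 28 alternatives, 1 called Nos2 lower in KO, that with a block for runs of library numbers (-0.28, edgeR adjusted p = 0.035). Slc7a2 differed by -0.06 ± 0.19 (adjusted p = 0.89; -0.46 to 0.35). Arg1 differed by -0.55 ± 0.48 (adjusted p = 0.51; -1.56 to 0.46), a value that is 0.34 without WT LPS replicate 2, and Arg2 by 0 ± 0.36 (adjusted p = 1). Exact permutation tests of the log2 levels (two-sided), whose smallest possible p with 5 against 5 is 0.00794, gave p of 0.127 to 0.944 for the 6 genes (0.429 to 0.944 after adjustment over the 9 tests made).

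**Figure D2:**
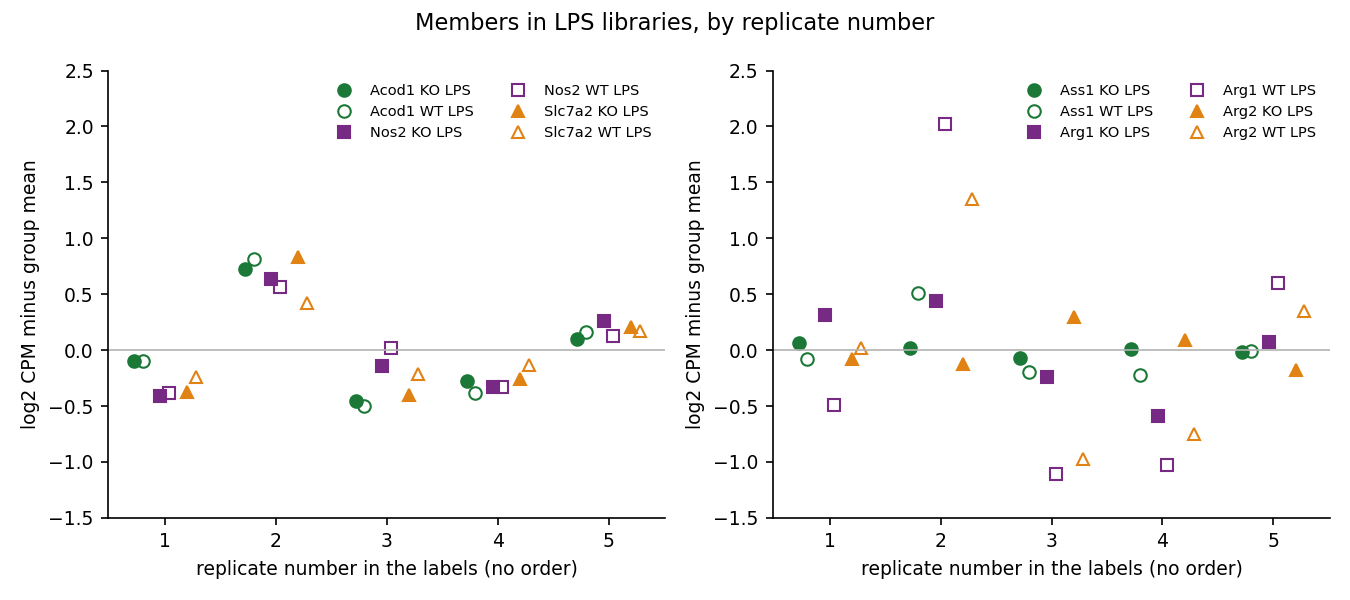
Deviation of each gene's log2 CPM from its group mean (vertical axis) in the LPS libraries, by the replicate number in the labels (horizontal axis, which has no order), with filled symbols for KO LPS and open symbols for WT LPS. Replicate 2 is the highest for Acod1, Nos2, Slc7a2 and Arg1 in both genotypes. Ass1, Arg1 and Arg2 are raised in replicate 2 mainly in WT LPS, by 0.51, 2.03 and 1.35.

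Within the LPS groups the 3 genes with the steepest response, Acod1, Nos2 and Slc7a2, were highest in replicate 2 of both genotypes. So was Arg1, whose LPS response was not called, so this rank does not go with a steep response alone. Acod1 deviated there by 0.73 in KO LPS and 0.82 in WT LPS from its group mean on the log2 scale. Ass1, Arg1 and Arg2 deviated by 0.51, 2.03 and 1.35 in WT LPS replicate 2, but by 0.01, 0.44 and -0.13 in KO LPS replicate 2. These are also the 2 libraries with the highest sum of monocyte and macrophage markers among the LPS libraries (above), and whether that bears on the levels of the 6 genes was not tested.

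Ass1 was the gene of the 6 with a difference between genotypes. In the control state it averaged 55.7 ± 3.58 CPM in KO and 39.5 ± 4.71 CPM in WT libraries (SD, n = 4 each), 1.41-fold higher in KO. The lowest KO value was 52.4 CPM and the highest WT value 46.0 CPM. In CPM the groups thus did not overlap, as was true of 14.7% of tested genes. In the deposited TPM they did overlap, with the lowest KO value at 70.96 TPM and the highest WT value at 71.13 TPM. The log2 difference was 0.49 ± 0.12 (edgeR adjusted p = 0.037; 95% interval 0.24 to 0.75), and Ass1 was the 1 gene of the 6 called, against 2.41% of all tested genes (1.89% higher and 0.525% lower in KO). The exact permutation test gave p = 0.0286, the smallest that 4 against 4 allows, and 0.257 after adjustment over 9 tests. The call was near the threshold: over 28 alternatives the difference stayed between 0.45 and 0.57, its adjusted p ran between 2.3e-04 and 0.15, and the call was lost in 11 of them. Leaving out any of WT control replicates 1, 2 or 3, KO control replicates 1 to 4, or KO LPS replicates 4 or 5 lost it, with adjusted p of 0.051 to 0.15. The call was kept without WT LPS replicate 5 and WT control replicate 4, the libraries with neutrophil transcripts (0.57 ± 0.13, adjusted p = 0.036).

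**Figure D3:**
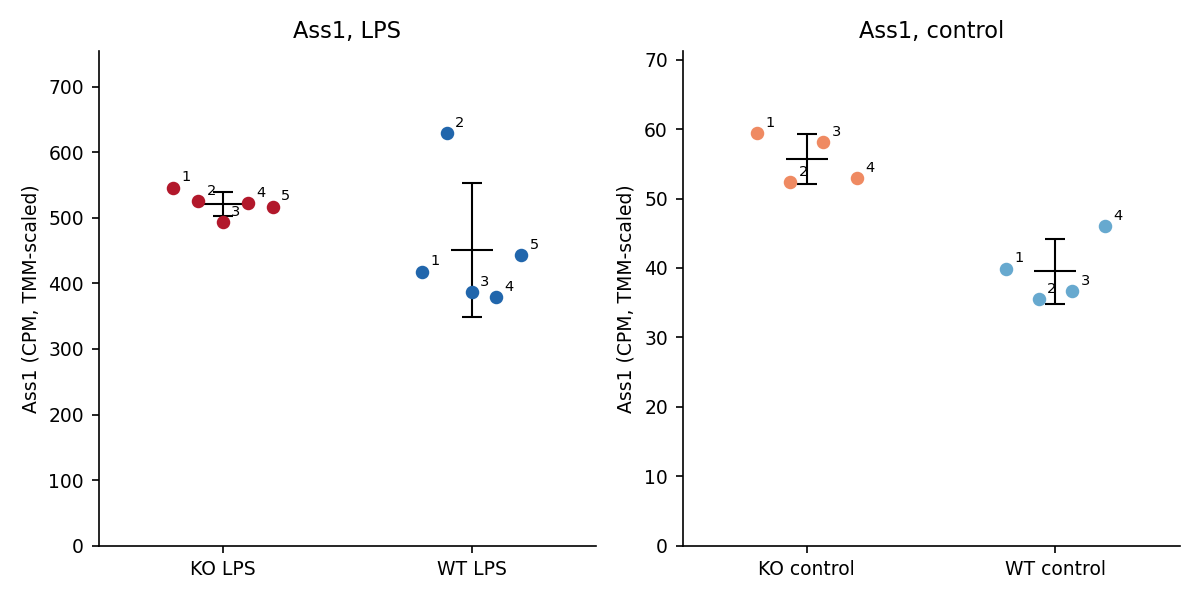
Ass1 level in CPM (vertical axes from 0, each state on its own scale) in KO LPS and WT LPS libraries on the left and in KO control and WT control libraries on the right, with replicate numbers beside the points and bars for the mean ± SD. WT LPS replicate 2 at 629 CPM lies above all KO LPS libraries, and the remaining 4 of that group, between 379 and 443 CPM, lie below all of them.

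With LPS, Ass1 averaged 521 ± 18.9 CPM in KO and 451 ± 103 CPM in WT libraries (SD, n = 5 each), and the difference of 0.21 ± 0.11 was not called (edgeR adjusted p = 0.22; 95% interval -0.01 to 0.43). That outcome depends on WT LPS replicate 2. The other 4 WT LPS libraries lay below all 5 KO LPS libraries, and without replicate 2 the difference was 0.36 ± 0.07 (adjusted p = 4.5e-04; exact permutation p = 0.00794). That permutation p is before adjustment and, with no overlap left, is the smallest the test allows. The library left out is the one far from its group on Ass1 itself, so these p-values are no independent support. Leaving out WT LPS replicate 2 also raised the share of all genes called in this comparison to 27.9%. In the control state the difference was then 0.49 ± 0.07 (adjusted p = 2.3e-04), since all groups share 1 estimate of spread. The change of the LPS response with genotype was not called for Ass1 (interaction -0.29 ± 0.16, adjusted p = 0.35), so the KO effects in the 2 states were not shown to differ.

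None of the 6 genes was called for the interaction of genotype and LPS, against 3.82% of all tested genes (1.03% positive and 2.79% negative). The interaction was -0.18 ± 0.52 for Slc7a2 (edgeR adjusted p = 0.89), -1.01 ± 0.70 for Arg1 (0.47) and -0.66 ± 0.89 for Arg2 (0.74). For Acod1 and Nos2 it was -0.64 ± 2.13 and -1.42 ± 1.94, with 0 to 3 reads per control library and 95% intervals of -5.09 to 3.82 and -5.47 to 2.63, which are wide at this depth. In the control state the differences of the remaining 5 genes were also not called: Arg1 averaged 1.59 ± 0.149 CPM in KO and 1.15 ± 0.486 CPM in WT controls (0.46 ± 0.51, adjusted p = 0.78), and Slc7a2 0.638 ± 0.224 CPM in KO and 0.585 ± 0.0815 CPM in WT controls (0.12 ± 0.48, adjusted p = 0.96). Acod1, Nos2 and Arg2 had few reads at rest, and the 95% intervals of their differences were -3.86 to 4.77, -2.70 to 5.02 and -1.05 to 2.39.

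The genes around the 6 were read through 6 lists from textbook pathways. Those of the LPS response are given first, with LPS against control in KO and then in WT cells. The counts of each list stand against those of all tested genes. Of these, 40.0% were called higher and 46.2% lower in KO cells, and 40.7% higher and 44.7% lower in WT cells. Under total-count scaling in place of TMM, the median log2 fold change of all genes moves to -0.88 in KO and -0.80 in WT cells, against -0.10 and -0.06 with TMM, and of all calls 22.3% in KO and 22.1% in WT cells are then higher with LPS, against 46.4% and 47.7%. Changes of a size under about 0.8 are therefore relative to the typical gene. The 5 calls of the 6 genes did not depend on this (Ass1 2.44 in KO and 2.75 in WT cells, Arg2 2.40 and 3.09, by total counts). For Acod1, Nos2 and Arg2 the calls were bound to follow from the filter, as stated above.

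**Figure D4:**
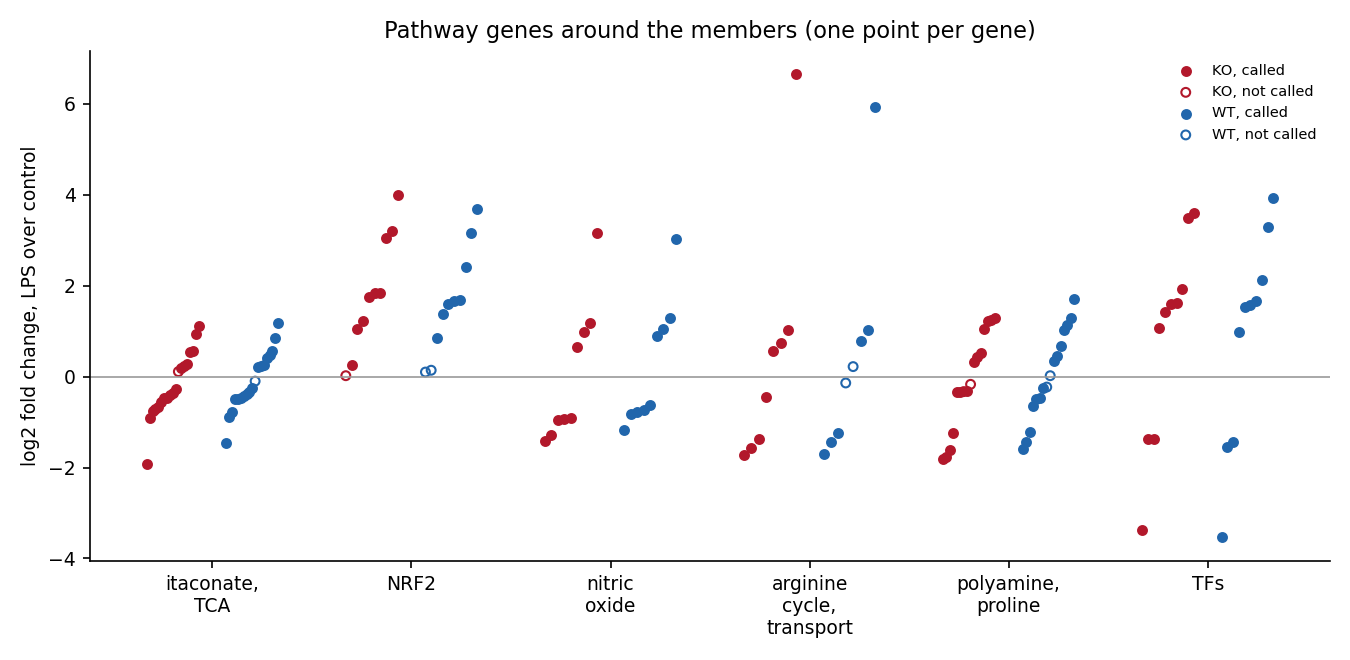
Log2 fold change of LPS over control (vertical axis) for the tested genes of the 6 pathway lists (horizontal axis; TFs are transcription factors linked to the 6 genes), with KO in red to the left and WT in blue to the right within each list. Filled points were called and open points were not. With this TMM scaling the 10 NRF2 genes lie above 0, of which 2 were called lower by total counts in either genotype, and Slc7a3 is the highest point of all lists in both genotypes.

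Of 19 tested genes of the TCA cycle and itaconate handling, 7 rose and 11 fell in KO cells, and 8 rose and 10 fell in WT cells (list medians -0.37 and -0.24, against -0.10 and -0.06 over all genes). The highest were Slc25a1, the mitochondrial citrate carrier, at 1.12 ± 0.07 in KO and 1.19 ± 0.07 in WT cells, and Cs, citrate synthase, at 0.93 ± 0.04 and 0.86 ± 0.04. Idh2, the mitochondrial NADP-dependent isocitrate dehydrogenase, was the lowest, at -1.92 ± 0.08 in KO and -1.47 ± 0.08 in WT cells. The 4 succinate dehydrogenase subunits Sdha, Sdhb, Sdhc and Sdhd, named here because itaconate inhibits that enzyme and after their values were seen, were called higher by 0.19 to 0.56 with TMM and turned in sign by total counts in both genotypes.

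Most genes of the list of NRF2 and its targets were called higher with LPS. In KO cells 9 of 10 rose and none fell, and in WT cells 8 of 10 rose and none fell (list medians 1.80 and 1.63). Of all tested genes, 40.0% rose in KO and 40.7% in WT cells. Sqstm1, the autophagy receptor p62, rose by 3.99 ± 0.12 in KO and 3.69 ± 0.12 in WT cells, and Nfe2l2, which encodes NRF2 itself, by 3.21 ± 0.08 and 3.17 ± 0.08. Hmox1, heme oxygenase 1 and a well known NRF2 target, was not called in either, at 0.02 ± 0.16 and 0.10 ± 0.16. By total counts 8 of 10 rose and 2 fell in KO cells, and 7 rose and 2 fell in WT cells.

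Of the nitric oxide list 9 of 15 genes were tested, since Nos1, Nos3, Gchfr, Ddah1, Gucy1a1 and Gucy1b1 had at most 8 reads in any library. In both genotypes 4 rose and 5 fell, with Ddah2 turning in sign by total counts in KO cells. Gch1, the first enzyme of the synthesis of tetrahydrobiopterin, the cofactor of nitric oxide synthase, had 107 CPM in KO LPS against 12.0 CPM in KO control cells, and 93.3 CPM in WT LPS against 11.5 CPM in WT control cells (3.15 ± 0.11 and 3.02 ± 0.11). Spr, sepiapterin reductase, the last enzyme of that synthesis, fell by 1.29 in KO and fell by 0.82 in WT cells. Nosip, a protein that binds nitric oxide synthase, was lower at -1.41 ± 0.10 in KO and -1.18 ± 0.10 in WT cells.

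Of 8 tested genes of the arginine cycle and arginine transport, 4 rose and 4 fell in KO cells, and 3 rose and 3 fell in WT cells. By total counts Asl and Slc7a1 turned in sign in KO cells. Besides Slc7a3 the highest was Slc3a2, the heavy chain of several amino acid transporters, at 1.02 ± 0.06 in KO and 1.03 ± 0.06 in WT cells. Slc38a9, the lysosomal arginine sensor, was lower at -1.72 ± 0.06 and -1.43 ± 0.06, and Slc25a15, the mitochondrial ornithine carrier, at -1.57 ± 0.13 and -1.71 ± 0.13. Otc and Cps1, the urea cycle enzymes of liver, had at most 1 read in any library.

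Of 16 tested polyamine and proline genes, 7 rose and 7 fell in both genotypes, with Odc1, Oaz1 and Oat turning in sign by total counts in both. Smox, spermine oxidase, was higher by 1.28 ± 0.08 in KO and 1.70 ± 0.08 in WT cells, and Sms, spermine synthase, by 1.24 ± 0.05 and 1.29 ± 0.05. Srm, spermidine synthase, was lower at -1.62 ± 0.12 in KO and -1.60 ± 0.12 in WT cells. Of the 10 transcription factors, 7 rose and 3 fell in both genotypes. Irf1, which acts downstream of interferons, was higher by 3.48 ± 0.15 in KO and 3.30 ± 0.15 in WT cells. Klf4, a myeloid transcription factor, was lower at -3.38 ± 0.11 and -3.54 ± 0.11, and Tfeb, a regulator of lysosomal genes, at -1.38 ± 0.10 and -1.54 ± 0.10.

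With LPS, 1 of the 62 tested genes of the 5 metabolic lists was called higher in KO than in WT cells and 4 were called lower, against 5.3% and 5.5% of all tested genes, shares near the background. Gatm, which makes the creatine precursor guanidinoacetate from arginine, averaged 25.7 ± 2.40 CPM in KO and 44.7 ± 2.01 CPM in WT cells (-0.80 ± 0.06, edgeR adjusted p = 8e-08). Idh2 averaged 13.4 ± 1.61 CPM in KO and 19.1 ± 2.07 CPM in WT cells (-0.51 ± 0.08, adjusted p = 4.5e-04), and Slc38a9 10.4 ± 0.754 CPM in KO and 14.1 ± 0.697 CPM in WT cells (-0.44 ± 0.06, adjusted p = 1.3e-04). Spr was 0.23 lower in KO on the log2 scale, at 7.51 CPM against 8.80 CPM in WT cells (adjusted p = 0.047), a call lost with DESeq2 size factors (adjusted p = 0.071). For these 4 genes no KO LPS library reached a WT LPS library, while the groups did not overlap for 6.51% of all tested genes. The 4 genes were named because they were called, so their separation is no further support. Each was the only gene called of its list, and Sqstm1, at 2860 CPM in KO and 2150 CPM in WT cells, was the 1 called of the NRF2 list (0.41 ± 0.10, adjusted p = 0.012). Without WT LPS replicate 2, the 5 metabolic lists held 7 genes called higher and 10 called lower of 62 tested, against 1 and 4 with it, while the share of all genes called was then 27.9%, against 10.8%.

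In the control state 1 of these 62 genes was called, against 2.41% of all tested genes. It was Smox, at 5.61 ± 0.211 CPM in KO and 3.80 ± 0.142 CPM in WT cells (0.56 ± 0.09, adjusted p = 0.0012). Without WT LPS replicate 2 the count was 4, all higher in KO, while calls over all genes were 751 against 289. The interaction of genotype and LPS was called for 5 of the 62 genes, against 3.82% of all tested genes. All 5 were negative, against 2.79% of all tested genes, which means a smaller rise or larger fall with LPS in KO cells. These were Gatm (-0.60 ± 0.09, adjusted p = 9.4e-04), Spr (-0.46 ± 0.10, 0.013), Idh2 (-0.45 ± 0.12, 0.035), and Smox (-0.42 ± 0.11, 0.042), and Prodh, proline dehydrogenase, named after its values were seen and under 5 CPM in every group (-0.61 ± 0.16, 0.049). With DESeq2 size factors the calls of Smox and Prodh were lost (adjusted p = 0.075 and 0.073), and without WT LPS replicate 2 the count was 10, while calls over all genes were 1501 against 458.

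Among the transcription factors with LPS, Nfkb1, which encodes the p105 and p50 NF-kB proteins, averaged 697 ± 41.2 CPM in KO cells and 572 ± 38.4 CPM in WT cells (0.29 ± 0.05, edgeR adjusted p = 0.0012). Cebpb, a basic leucine zipper factor of macrophage genes, averaged 7.15 ± 1.09 CPM in KO cells and 11.1 ± 1.05 CPM in WT cells (-0.63 ± 0.12, adjusted p = 0.0017). Those not called were Irf1 at 0.29 ± 0.12, Tfeb 0.26 ± 0.11, Klf4 0.19 ± 0.13, Stat6 0.16 ± 0.05, Hif1a 0.06 ± 0.05, Pparg -0.04 ± 0.21 and Rela -0.10 ± 0.04. In controls the factors named here differed by between -0.10 and 0.12, and none of them was called.

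The genes whose profile over the 18 libraries came closest to each of the 6 were ranked by the root-mean-square difference of centred log2 CPM, as a description. Ass1 had the closest, with Phf11a at 0.10 and Lgals3bp and Sp100 at 0.12. Lgals3bp averaged 757 CPM in KO LPS, 679 CPM in WT LPS, 80.2 CPM in KO control and 54.8 CPM in WT control libraries. The nearest to Nos2 were Clec4e (0.27), the receptor Mincle, Il1a (0.34), the cytokine interleukin 1 alpha, and Trim30c (0.41). The nearest to Slc7a2 were Ccl2 (0.29), a monocyte chemokine, Sct (0.30) and Rnf213 (0.31). Acod1 had Oasl1 (0.39), Ifit1 (0.40) and Cd69 (0.46). Arg2 had Sema7a (0.39), Glipr2 (0.41) and Nudt17 (0.41), and Arg1 had F13a1 (0.35), Ramp3 (0.37) and Mgst1 (0.41). All these distances share the large step between LPS and control, except for Arg1.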

How the data were processed

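RNA was measured in 18 libraries, grouped by the genotype and treatment labels. Per the labels' protocols, libraries were made for the DNBSEQ platform with paired 150-base reads, and the submitters' processing notes list HISAT, Bowtie2 and build GRCm39. The sources used here do not give the annotation, the counting program or its use of strand. Per the file headers, the authors deposited per gene an estimated count, a TPM and an FPKM for every library. The deposited estimated counts are not normalized (6.37% were not whole at a tolerance of 0.001) and were rounded. The deposited TPM values, scaled by length and to a fixed sum, served for levels between genes, and the authors' FPKM values were not used.

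Counts were fitted with edgeR 4.0.16 (R 4.3.3; TMM, minimum count 10, minimum total 15, one mean per group over all 18 libraries, quasi-likelihood test, adjusted p under 0.05), after tests on simulated data. SE is the fold change divided by the root of its F value. Alternatives used DESeq2 1.42.0, limma-voom 3.58.1, other scalings, blocks, fewer groups and left-out libraries. Exact two-sided permutation tests used log2 CPM with a prior count of 2. Genes were named by rule: the 6, and from each list the called genes with the 2 highest and 2 lowest fold changes at 5 CPM or more, every transcription factor between genotypes, and the 3 nearest profiles; others are marked as singled out. The members and lists were chosen with earlier results of these data known. Of the table's gene IDs 16495 were found in the RefSeq table of GRCm38.p6, which gave chromosomes and promoter windows, and no coordinates of the authors' build were used. Results for some genes of the lists are not reported here.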

Additional observations from a re-analysis of the deposited data

Results flagged for a closer look

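Among 24 groups of values tested (6 genes in 4 groups), 3 held a library far from the rest of its group, where the nominal rate is about 1 in 20, a rate not checked here for counts near 0. Ass1 stood at 629 CPM in WT LPS replicate 2, against 379 to 443 CPM in the other 4 WT LPS libraries. Arg1 stood at 6.54 CPM in the same library, against 0.682 to 2.38 CPM in the others. Nos2 stood at 0.0275 CPM in WT control replicate 4, which is 1 read against 0 in the other 3 libraries and within counting error, since 0 reads allow up to 3. WT LPS replicate 2 is also the library that deviates most from its group over all genes, and it has the highest monocyte and macrophage marker sum of all 18 libraries, 3000 CPM. KO LPS replicate 2, with 2820 CPM of these markers, had 525 CPM of Ass1, inside the range of the other KO LPS libraries. Its 2.03 CPM of Arg1 was the highest of the KO LPS libraries. The part of these markers in the Ass1 and Arg1 values was not tested.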

How the results depend on the processing

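The LPS calls of Acod1, Nos2, Slc7a2, Ass1 and Arg2 held in both genotypes under all 28 alternatives. Acod1, Nos2 and Arg2 could pass the count filter only through their LPS libraries, so for them this was bound to follow and is no support. The number of the 6 genes called between genotypes in controls was 0 with DESeq2 size factors and 0 with the replicate number as a block (Ass1 adjusted p = 0.059 and 0.064), and between genotypes with LPS it was 1 with a block for runs of library numbers and 1 without the libraries numbered 5 and 7 (LPS replicate 2 of both genotypes). The replicate block joins different runs, because control and LPS libraries with the same replicate number from 2 up fall in different runs. With the run block the Ass1 call in controls was kept (edgeR adjusted p = 0.0065). Genes called between genotypes in controls numbered 289 in the analysis as reported, 614 with the run block, 483 with DESeq2, 895 with only the groups compared, 822 without libraries 5 and 7, and 191 without WT LPS replicate 5 and WT control replicate 4, an alternative chosen after seeing the data. With LPS they numbered 1294, 619 with only the groups compared and 3238 without libraries 5 and 7. For the interaction they numbered 458, 882 with the run block, 829 with DESeq2, 1591 without libraries 5 and 7, and 206 without the pair with neutrophil transcripts. Of the calls between genotypes with LPS, 49.1% were higher in KO with TMM, 58.6% with DESeq2 size factors and 23.0% by total counts. For the interaction, 27.1%, 42.9% and 18.9% of the calls were positive.

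Leaving out each library in turn gave 805 to 3344 genes called with LPS, 114 to 751 in controls and 208 to 1501 for the interaction, with 0 to 1 of the 6 genes called with LPS and 0 to 1 in controls. The highest counts came without WT LPS replicate 2 in each case, and the lowest without KO LPS replicate 1 (with LPS) and WT control replicate 3 (in controls and for the interaction). Over these fits the log2 difference between genotypes with LPS ran from -0.41 to 0.08 for Acod1, -0.78 to 0.34 for Arg1, -0.20 to 0.51 for Arg2 and -0.33 to 0.06 for Slc7a2. That of Slc7a2 ran from -0.11 to 0.30 in controls and from -0.45 to 0.06 for the interaction, and LPS over control for Arg1 in KO cells from -0.18 to 0.07. None of these values was called, and other changes of sign were of uncalled values too: Arg1 LPS over control in KO cells at 0.03 (DESeq2 size factors) and 0.02 (DESeq2), Arg2 between genotypes with LPS at -0.06 (total counts) and 0 (only the groups compared), and Arg1 between genotypes with LPS at 0.22 (without libraries 5 and 7). The permutation difference was 0.04 for Acod1 and 0.44 for Arg1 with LPS without WT LPS replicate 2, and 0 for Slc7a2 in controls on log2(TPM + 1). The cause of these shifts was not tested.

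The labels do not state that same-numbered libraries share a preparation, and correlations did not settle it. Deviations of same-numbered KO and WT libraries correlated at 0.01 to 0.35 with LPS and 0.03 to 0.25 in controls over genes. The own number gave the highest correlation for 3 of 5 LPS and 2 of 4 control numbers. Library numbers run in sets that each hold the 4 groups, except for 5 and 7, which are LPS libraries only. WT LPS replicate 5 and WT control replicate 4, the pair with neutrophil transcripts, are numbered 17 and 18 in the same run. LPS and control libraries of the same run correlated at -0.03 to 0.14 in KO and 0.14 to 0.27 in WT cells. With the replicate number as a block, Acod1 differed between genotypes with LPS by -0.16 (adjusted p = 0.23) and Nos2 by -0.28 (adjusted p = 0.11). With the block of library runs Nos2 was called at -0.28 ± 0.08 (adjusted p = 0.035), Acod1 was not at -0.16 ± 0.06 (0.076), and Ass1 in controls was 0.50 ± 0.10 (0.0065). KO was below WT at 5 of 5 numbers for both Acod1 (-0.25 to -0.05) and Nos2 (-0.44 to -0.15), with the same rank order of numbers in both genotypes, a hint of pairing that the labels do not state. Depth limits the control values of Acod1, Nos2 and Arg2 (0 to 5 reads a library), so their differences between genotypes at rest, and their interactions, are imprecise.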
